A study of Mus musculus with 18 samples.

Results

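In bone marrow-derived macrophages (BMDMs) of both strains of this study, 16 of 20615 measured genes had more RNA after apoptotic cells (ACs) and were under a set limit of increase with CpG. They were chosen from the data. Levels were CPM, that is estimated counts scaled by the column total, each group was the mean of its 3 samples, and 0.1 CPM was added to each mean. A gene was taken when the ratio of AC to control was 1.8 or more in both strains, the ratio of CpG to control was under 1.3 in both, and the AC mean was 2 CPM or more in both. The metallothioneins Mt1 and Mt2 also met these limits and were left out by the rule. The choice used all 4 comparisons of a treatment with its control, so those ratios are descriptions and carry no test. The level of these genes in one strain against the other was not fixed by the choice, nor was the order of their AC responses between strains. These were tested. The test of the AC responses compares ratios that the choice used, so its counts are not free of the choice. The limits were set on column totals and the tests used TMM scaling, which raised AC ratios more in SjSS. For Phldb1 the AC ratio went from 4.18 to 5.55 in SjSS and from 3.31 to 3.49 in B6.

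B6 stands for C57BL/6 mice and SjSS for C57BL/6.NOD-Aec1Aec2 mice, which carry intervals of the NOD genome on the B6 background and are susceptible to a disease like Sjögren's syndrome. Marrow came from mice aged 7 to 12 weeks and was grown for 7 days with 20% L929 supernatant as a source of M-CSF, which was lowered to 5% before treatment at 300000 cells per well. For each strain, 3 samples were left untreated (controls), 3 were given 5 dexamethasone-killed thymocytes per BMDM for 2 h, washed and kept for another 3 h by the sample labels (the methods give a longer time), and 3 were given 1 µM CpG, an oligonucleotide agonist of TLR9, for 6 h. The labels give the wash and the later incubation for the AC samples alone, the published account describes them for untreated and CpG samples too, and the total time of the controls was not given in the sources used here. The strain of the thymocytes in each sample was also not given. Cells came from 3 mice of each strain, which were left untreated or given CpG or ACs, so that cells of 1 mouse may stand in all 3 groups of its strain. The labels number the samples as replicates without tying a number to a mouse, and p-values measure the spread between these samples.

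Macrophages that engulf apoptotic cells (efferocytosis) take in a load of lipid, nucleic acid and protein. They are known to answer with genes of cholesterol export, of polyamine and arginine metabolism, and of cytoskeletal change. CpG DNA is sensed by TLR9 in endosomes and drives NF-κB and interferon genes in the same cells.

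Ratios of AC to control reached 1.8 for 662 genes in B6, for 1171 in SjSS and for 430 in both, of which 316 had the required level. Among these, 298 reached the CpG limit in at least 1 strain and 279 in both, and 18 did not, the 16 described here and Mt1 and Mt2. They comprise 11 protein-coding genes (Peli1, Fam26f, Lif, Abcg1, Odc1, Plk2, Armcx6, Arhgap28, Phldb1, Sh3bgrl2 and Cdh5), the 2 ribosomal RNAs of the mitochondrial genome (mt-Rnr1 and mt-Rnr2), 2 processed pseudogenes (Gm9115 and Gm9260) and a long non-coding RNA (9330175E14Rik). All 16 passed the filter on low counts.

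**Figure D1:**
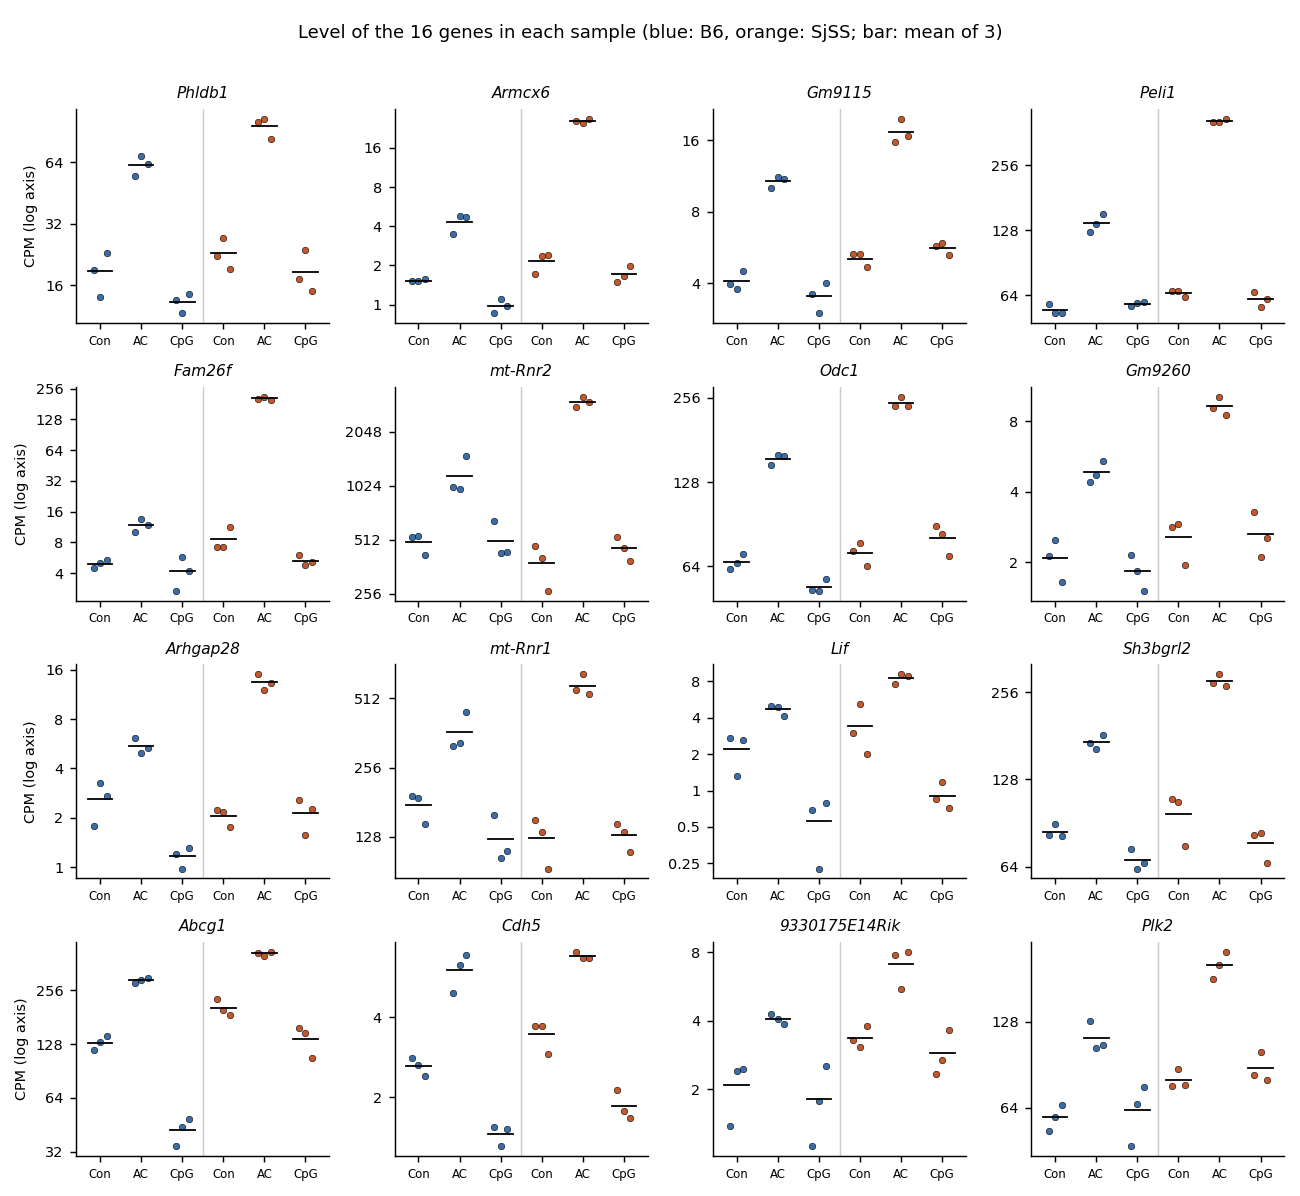
CPM (log axis) of the 16 genes in each of the 18 samples, with B6 in blue and SjSS in orange and controls, AC and CpG samples side by side for each gene; short lines are group means. The AC samples of each strain lie above its controls and above its CpG samples for each of the 16 genes, and the SjSS AC samples of Fam26f, at 198 to 214 CPM, lie far above the B6 AC samples at 10.2 to 13.5 CPM.

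In B6 the ratio of AC to control ran from 1.89 (Plk2) to 3.31 (Phldb1), with a median of 2.26. In SjSS it ran from 1.95 (Cdh5) to 23.5 (Fam26f), with a median of 3.48. Over the 10906 genes with the same AC level, the medians were 0.968 and 0.775. The ratio was larger in SjSS for 14 of the 16 genes and larger in B6 for Abcg1 and Cdh5. Every AC sample lay above every control for 16 of 16 genes in both strains, as it did for 24.7% of the 10906 genes in B6 and 16.3% in SjSS. It also lay above every CpG sample for 16 of 16 genes in both (44% and 18.3% of the 10906). The choice fixed these counts and nothing is read from them.

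The rule set a limit on a rise with CpG and none on a fall. The median ratio of CpG to control was 0.808 in B6 and 0.896 in SjSS, near the 0.885 and 0.931 of the 10906 genes, and 8 of the 16 genes were under 1 in both strains. Every CpG sample lay below every control for 7 genes in B6 and 4 in SjSS (48.2% and 43.5% of the 10906 genes), and for Lif, Abcg1 and Cdh5 this held in both strains. The CpG limit also leaves room for small increases. On the TMM scale used for the tests below, the log2 ratio of CpG to control was 0.30 ± 0.09 (SE) for Odc1 and 0.28 ± 0.12 for Gm9115 in SjSS and 0.27 ± 0.07 for Peli1 in B6. Near the limits, the genes with the lowest lesser AC ratio inside were Plk2 (1.89), 9330175E14Rik (1.92) and Cdh5 (1.95), and just outside were H2-K2 (1.77) and Gm17709 (1.72). The highest CpG ratios inside were those of mt-Rnr2 (1.22), Odc1 (1.13) and Gm9115 (1.1), and just outside were Cx3cl1 (1.3), Gm7993 (1.32) and Tiparp (1.41).

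**Figure D2:**
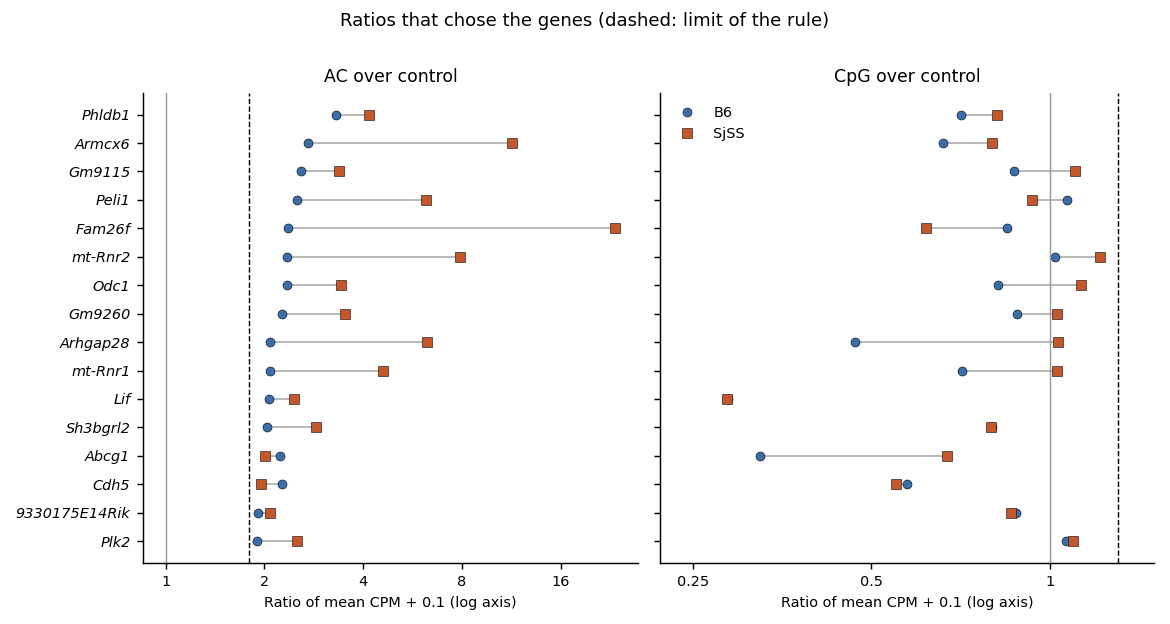
Ratios of mean CPM plus 0.1 (log axes) that chose the genes, AC over control on the left and CpG over control on the right, with B6 as circles, SjSS as squares and the limits of the rule, 1.8 and 1.3, as dashed lines. AC ratios of SjSS lie to the right of those of B6 for all genes but Abcg1 and Cdh5, and the CpG ratios of Lif, 0.286 in both strains, overlie each other.

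Column totals ran from 30688336 to 57139662 estimated counts, and 3 counts, taken as the floor, stood for 0.0525 to 0.0978 CPM. The sum of 8 macrophage markers was 15097 CPM or more in all 18 samples. The sum of 24 T-lineage markers, used to look for thymocyte RNA, was 163 to 201 CPM in the B6 controls and 119 to 135 CPM with AC, and 181 to 227 and 127 to 135 CPM in SjSS. It was led by Cd28, Cd4, Il7r and Satb1, which were set apart after the values were seen. The sum of the other 20 markers was higher with AC, at 3.33 to 4.63 against 1.56 to 2.57 CPM in B6 and at 3.27 to 4.24 against 1.86 to 3.08 CPM in SjSS. The 8 defining genes of the lineage (Cd3d, Cd3e, Cd3g, Trac, Cd8a, Cd8b1, Rag1 and Dntt) were at or below 0.319 CPM in every sample. The part of thymocyte RNA in the values of the 16 genes was not tested. The sum of 4 dendritic cell markers, of which 3 were in the table, was also higher with AC, at 1.00 to 1.28 against 0.753 to 0.823 CPM in B6 and at 1.95 to 2.73 against 0.684 to 0.912 CPM in SjSS, led in the SjSS AC samples by Xcr1 at 1.52 to 2.22 CPM. Its part in the results was not tested. The sum of 5 stromal and epithelial markers, of which 4 were in the table, was higher in SjSS than in B6 in each treatment. It was 172 to 241 against 41.2 to 134 CPM in controls and 147 to 182 against 68.9 to 102 CPM with AC. With CpG it was 141 to 189 against 33.1 to 82.0 CPM. The part of these markers in the strain differences was not tested. In bulk RNA, more cells of a kind and more RNA per cell cannot be told apart.

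With ACs, all 16 genes were higher in SjSS than in B6, and for most of them the AC response itself was larger in SjSS. Fewer passed as different between the strains without treatment or with CpG, and those that did were higher in SjSS. Differences are log2 of SjSS over B6 from edgeR's quasi-likelihood test on TMM-scaled counts. A gene passed at an adjusted p under 0.05 over 15789 genes, and was called when the log2 difference was also over 1.3. With ACs, 16 of 16 passed higher (24% of all genes, and 25.5% passed lower) and 5 were called (6.24% of all genes higher and 2.69% lower), with a median of 1.12 against -0.05 over all genes. The interaction, that is the AC response in SjSS minus that in B6, passed higher for 12 and lower for 0 (19.6% and 18.3% of all genes) and was called for 6 and 0 (4.76% and 2.77%), with medians of 0.87 and -0.01. It was called for Fam26f, Armcx6, mt-Rnr2, Arhgap28, Peli1 and mt-Rnr1, and did not pass for Lif, 9330175E14Rik, Abcg1 and Cdh5.

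Without treatment, 4 genes passed higher and 0 lower (9.04% and 10.6% of all genes) and 0 were called in either direction (1.3% higher and 0.716% lower), with medians of 0.26 and -0.01. They were Fam26f (0.77 ± 0.19, SE), Abcg1 (0.61 ± 0.13), Plk2 (0.39 ± 0.14) and Peli1 (0.22 ± 0.07). Of these 4 genes only Abcg1 passed with each of the 6 control samples left out in turn. Fam26f was lost without SjSS control 3 (0.53). Peli1 passed in 2 of the 6 fits, being lost without B6 control 2 or 3 or SjSS control 1 or 2 (0.19 at the lowest), and Plk2 passed in 1, that without B6 control 3 (0.31 at the lowest over the 6). With CpG, 5 genes passed higher and 0 lower (10.2% and 9.57% of all genes) and 1 was called, higher (1.82%, and 0.792% lower), with medians of 0.42 and 0.01. They were Abcg1 (1.61 ± 0.13), Arhgap28 (0.78 ± 0.23), Armcx6 (0.72 ± 0.18), Gm9115 (0.57 ± 0.12) and Odc1 (0.49 ± 0.09). Arhgap28 was lost in 4 of 6 fits without 1 sample (B6 CpG 1 or 2, SjSS CpG 1 or 3), with 0.62 at the lowest.

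The 298 genes that ACs raised and that reached the CpG limit in at least 1 strain give a measure for these shares. With ACs 244 of them (81.9%) passed higher in SjSS and 10 lower, and the interaction passed higher for 246 (82.6%) and lower for 1. The larger AC response in SjSS was therefore shared with the AC-raised genes that CpG also raised, at 75% for the 16 genes. With CpG 10 of the 298 passed higher in SjSS and 130 lower (43.6%), against 5 higher, 0 lower and 11 not passing of the 16. The sets had been split on the CpG ratios of these same samples. Untreated, 60 passed higher and 104 lower (34.9%), against 4 higher and 0 lower. No test of the difference between the sets was made, since both were chosen on these samples.

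**Figure D3:**
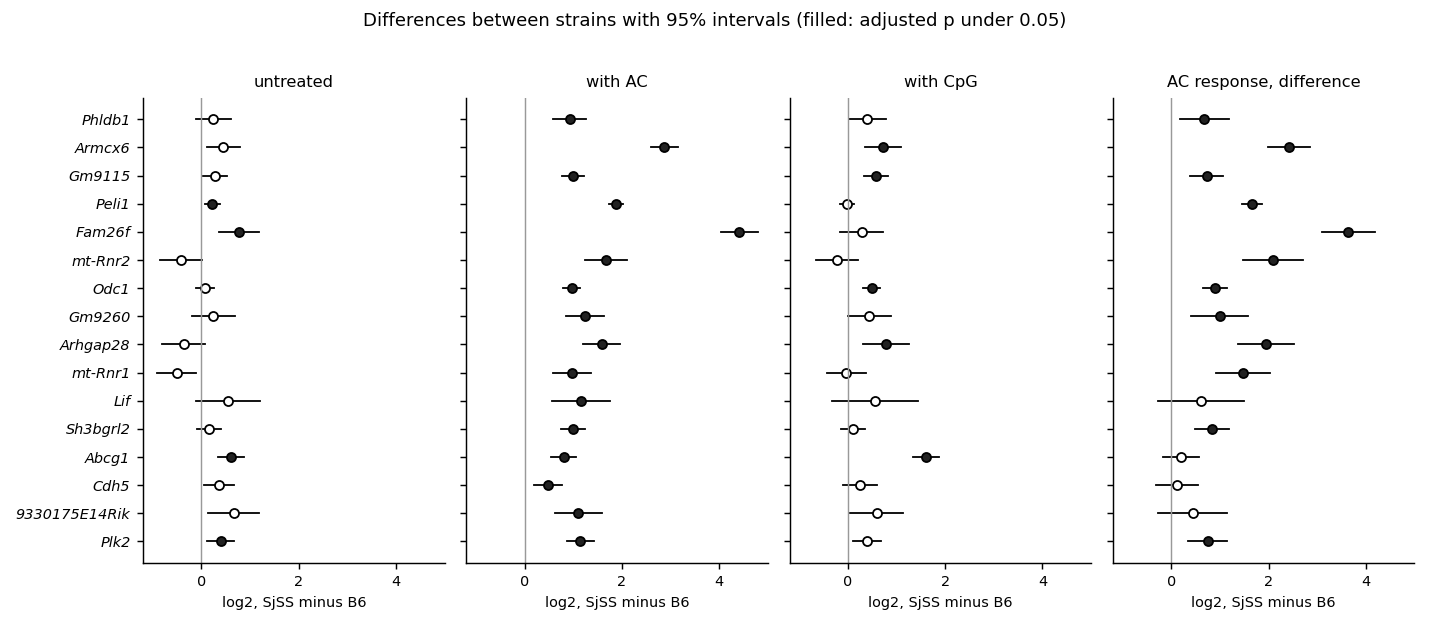
Log2 difference of SjSS minus B6 with 95% confidence intervals (edgeR, TMM scaling) for the 16 genes without treatment, with AC and with CpG, and the interaction of strain with AC; filled symbols passed at an adjusted p under 0.05. With AC all 16 intervals lie above 0, and for the interaction those of Lif, Abcg1, Cdh5 and 9330175E14Rik cross it.

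Scaling bears on the size of these differences. TMM factors ran from 0.8334 to 1.134, and on column totals with no such factors the log2 difference of the median gene was -0.35 with ACs and also -0.35 for the interaction. Over all genes, the calls with ACs were then 695 higher and 819 lower, against 985 and 425 with TMM, and for the interaction 509 and 912 against 752 and 437. Of the 16 genes, 15 still passed higher with ACs, Cdh5 being lost (0.18, adjusted p = 0.26). The interaction passed for 8, those of Phldb1 (0.34), Gm9115 (0.38), Gm9260 (0.65) and Plk2 (0.41) being lost. The share of all genes that passed higher was 13.2% with ACs and 9.16% for the interaction. Still passing, Arhgap28 was no longer called with ACs (1.29) nor mt-Rnr1 for the interaction (1.15). The call of mt-Rnr1 was also lost without SjSS control 3 (1.29). On column totals 14.9% of all genes rose and 23.5% fell with ACs in B6, and 13.2% rose and 56.6% fell in SjSS. In the account that follows, log2 differences are on the TMM scale and CPM on column totals.

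Of the 16 genes, Fam26f had the largest strain difference with ACs. Fam26f, also called Calhm6, encodes a membrane protein of the calcium homeostasis modulator family and is known as an interferon-responsive gene of macrophages (chr10:34126069-34127972, minus strand, mm10). In B6 it had 4.48, 5.00 and 5.33 CPM in the controls, 10.2, 13.5 and 11.7 CPM with ACs and 2.67, 5.70 and 4.14 CPM with CpG. In SjSS the controls had 7.23, 7.27 and 11.3 CPM, the AC samples 201, 214 and 198 CPM and the CpG samples 5.95, 4.84 and 5.08 CPM. The SjSS AC samples stood far above all others, and the next highest sample was a B6 AC sample at 13.5 CPM. The difference with ACs was 4.41 ± 0.18 (adjusted p = 3.7e-13) and the interaction 3.64 ± 0.26 (adjusted p = 2.5e-09), both the largest of the 16. With CpG the strains differed by 0.28 (95% interval -0.16 to 0.72), which did not pass. Of 14 interferon-stimulated genes, a list that does not hold Fam26f, 14 rose with ACs in both strains (20% and 28.6% of all genes). With CpG 14 also rose in both (28.1% and 27.8%). The interaction passed higher for 13 and lower for 0 (19.6% and 18.3%), and was called higher for 12 (4.76%), with a median of 2.79. The part of interferon in the values of Fam26f was not tested.

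Peli1 encodes Pellino 1, a ubiquitin ligase of Toll-like and interleukin-1 receptor signalling (chr11:21091291-21150323, plus strand). Its B6 controls had 58.5, 53.1 and 52.9 CPM, its AC samples 125, 136 and 151 CPM and its CpG samples 57, 58.9 and 59.8 CPM. SjSS controls had 67.2, 67.3 and 62.9 CPM, AC samples 407, 404 and 419 CPM and CpG samples 66.2, 56.7 and 61.3 CPM. Replicates were close. CpG samples overlapped the controls in both strains on column totals, where the rule had limited any rise with CpG. On the TMM scale the log2 ratio of CpG to control in B6 was 0.27 ± 0.07. SjSS exceeded B6 with ACs by 1.88 ± 0.07 (adjusted p = 1.73e-13), and the interaction was 1.65 ± 0.10 (adjusted p = 3.48e-10).

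Lif encodes leukemia inhibitory factor, a secreted cytokine of the interleukin-6 family (chr11:4257557-4272514, plus strand). B6 controls had 2.73, 1.33 and 2.60 CPM, AC samples 5.03, 4.95 and 4.15 CPM and CpG samples 0.686, 0.226 and 0.782 CPM. In SjSS these were 3.02, 5.25 and 2.01 CPM, 7.55, 9.18 and 8.94 CPM, and 0.844, 1.17 and 0.716 CPM. Lif was raised by ACs and lay below the controls with CpG in both strains, at a ratio of 0.286 in each, and its controls were the most scattered. It passed between strains with ACs (1.16 ± 0.29, adjusted p = 0.0024), while the interaction of 0.62 had an interval of -0.27 to 1.5. Of 10 other tested growth and repair factors, 2 rose and 2 fell with ACs in B6 and 5 rose and 2 fell in SjSS, where 20% and 28.6% of all genes rose and 18.3% and 29.4% fell. On column totals 3 rose and 3 fell in SjSS. With CpG 7 fell and 1 rose in B6 and 6 fell and 3 rose in SjSS (29.8% and 26.4% of all genes fell, 28.1% and 27.8% rose). Hbegf, an EGF family growth factor, changed by 0.34 ± 0.31 with ACs in B6, which did not pass, and by 1.11 ± 0.30 in SjSS, and fell with CpG by 2.06 and 1.27 on the log2 scale.

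Abcg1 is the exporter of cholesterol to high-density lipoprotein and a classical target of the oxysterol receptor LXR (chr17:31057698-31115777, plus strand). In B6 it had 118, 131 and 143 CPM in the controls, 281, 293 and 300.2 CPM with ACs and 34.2, 43.9 and 48.9 CPM with CpG. SjSS had 228.9, 199.98 and 186 CPM in the controls, 417, 401 and 421 CPM with ACs and 157, 149 and 106 CPM with CpG. The 3 treatments did not overlap in either strain, and each SjSS group lay above the B6 group of the same treatment. The difference between strains was 0.61 ± 0.13 untreated (adjusted p = 0.0021), 0.80 ± 0.13 with ACs (adjusted p = 2.94e-05) and 1.61 ± 0.13 with CpG (adjusted p = 7.91e-08), the one call among the 16 genes with CpG. Its AC response did not pass as different between strains, with an interaction of 0.19 (interval -0.18 to 0.56), which was -0.15 on column totals.

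Of 10 other LXR targets, 3 rose and 1 fell with ACs in B6 (20% and 18.3% of all genes), and 5 rose and 3 fell in SjSS (28.6% and 29.4%), where on column totals 1 rose and 6 fell. With CpG, where Abcg1 was also below its controls, 7 of the 10 fell and 1 rose in both strains (29.8% and 26.4% of all genes fell), with medians of -0.46 in B6 and -0.38 in SjSS against -0.04 and -0.01 over all genes. Abca1, the other main cholesterol exporter, rose with ACs by 0.53 ± 0.13 in B6 and 0.54 ± 0.13 in SjSS, the latter being 0.13 and not passing on column totals, and fell with CpG by 0.99 and 0.36 on the log2 scale. Nr1h3, which encodes LXRα, rose with ACs by 2.02 ± 0.13 and 2.03 ± 0.13, and rose with CpG as well, so that it did not meet the CpG limit. Others of the list went down with ACs on column totals, where the median gene changed by -0.07 in B6 and -0.43 in SjSS. There Scd2 changed by -0.18 in B6, which did not pass, and by -2.05 in SjSS. Apoe changed by -0.51 in B6 and by -0.42 in SjSS, the latter near that median.

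Odc1, ornithine decarboxylase, is the rate-limiting enzyme of polyamine synthesis (chr12:17544873-17551502, plus strand). Gm9115 (chrX:102724402-102725749, minus strand) and Gm9260 (chr12:115982263-115993370, minus strand) are annotated processed pseudogenes, and both are copies of the Odc1 transcript. Gm9115 was 97.5% identical to it over 1338 aligned bases and Gm9260 97.4% over 1365. A stretch of 60 coding bases is printed 5′ to 3′, coding bases 154 to 213 of Odc1 in its exon 4. It was chosen as the stretch within 1 exon with the most differences over both copies together, and is not typical of them. Capitals mark the bases that differ from Odc1, 4 in Gm9115 and 6 in Gm9260. Places are those of GENCODE M21 transcripts on GRCm38 (chr12:17547684-17547743 plus, chrX:102725537-102725596 minus and chr12:115993157-115993216 minus strand).
Odc1: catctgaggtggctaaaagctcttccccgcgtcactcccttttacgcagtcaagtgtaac
Gm9115: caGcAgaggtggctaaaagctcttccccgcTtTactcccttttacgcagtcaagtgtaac
Gm9260: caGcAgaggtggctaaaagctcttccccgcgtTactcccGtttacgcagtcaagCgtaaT

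Of the stretches as long as a sequenced read, 9.29% of those in Gm9115 and 3.20% of those in Gm9260 occurred unchanged in Odc1, and 13 annotated genes shared sequence with it, 10 of them in the table. The counts were estimates that divide reads among the places they match, so the values of the copies are uncertain. How many reads were divided between them was not measured, and whether the copies moved on their own was not tested.

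Odc1 had 62.4, 65.5 and 70.7 CPM in B6 controls, 147, 159.6 and 159 CPM with ACs and 52.6, 52.2 and 57.4 CPM with CpG. In SjSS the controls had 72.7, 77.5 and 64.3 CPM, the AC samples 239.8, 259 and 239 CPM and the CpG samples 89.4, 83.3 and 69.8 CPM. The controls of the strains overlapped, and their samples did not overlap with ACs or with CpG. The strain difference was 0.07 (interval -0.11 to 0.25) untreated, 0.96 ± 0.08 with ACs (adjusted p = 1.83e-08) and 0.49 ± 0.09 with CpG (adjusted p = 0.00049), and the interaction was 0.89 ± 0.12 (adjusted p = 8.84e-06).

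Gm9115 followed with 3.98, 3.78 and 4.48 CPM in B6 controls, 10.1, 11.2 and 10.9 CPM with ACs and 3.6, 2.98 and 4.02 CPM with CpG, and with 5.29, 5.28 and 4.66 CPM, 15.7, 19.7 and 16.6 CPM and 5.72, 5.88 and 5.24 CPM in SjSS. Gm9260 had 2.13, 2.5 and 1.65 CPM, 4.42, 4.69 and 5.41 CPM and 2.15, 1.83 and 1.51 CPM in B6, and 2.82, 2.92 and 1.94 CPM, 9.14, 10.2 and 8.5 CPM and 3.29, 2.10 and 2.52 CPM in SjSS. Over the 18 samples Gm9115 was at 5.72 to 7.59% of the Odc1 count and Gm9260 at 2.33 to 4.09% (the plot of the copies against Odc1). Shares differed between strains in places. In controls Gm9115 was at 5.77 to 6.39% in B6 and 6.81 to 7.27% in SjSS, and with ACs Gm9260 was at 2.94 to 3.40% and 3.56 to 3.94%. Their interactions were 0.72 ± 0.16 and 0.99 ± 0.28 (adjusted p = 0.0013 and 0.0083). Other copies lay just outside the rule, Gm7993 by its CpG ratio and Gm17709 by its AC ratio.

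**Figure D4:**
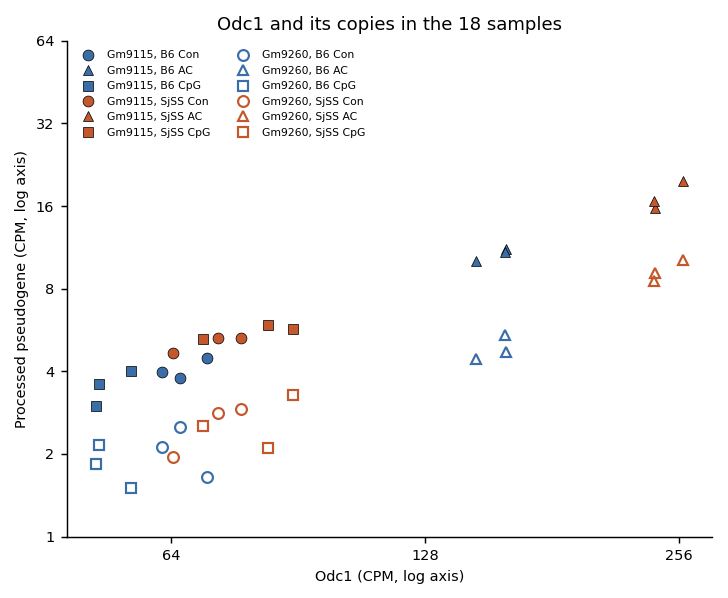
CPM of the pseudogenes Gm9115 (filled) and Gm9260 (hollow) against CPM of Odc1 (log axes) in the 18 samples, with circles for controls, triangles for AC and squares for CpG, B6 in blue and SjSS in orange. The copies lie at 5.72 to 7.59% and 2.33 to 4.09% of Odc1, and Odc1 goes from 52.2 to 259 CPM.

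Of 16 other genes of the metabolism and transport of engulfed cargo, 7 rose and 2 fell with ACs in B6 (20% and 18.3% of all genes), and 10 rose and 2 fell in SjSS (28.6% and 29.4%), where on column totals 6 rose and 6 fell. With CpG 7 rose and 7 fell in B6 (28.1% and 29.8%) and 7 rose and 8 fell in SjSS (27.8% and 26.4%). Slc7a2, a transporter of arginine, the precursor of ornithine, changed with ACs by 0.40 ± 0.18 in B6, which did not pass, and rose by 3.59 ± 0.19 in SjSS. Azin1, the inhibitor of the antizyme that marks ornithine decarboxylase for degradation, rose with ACs by 0.44 and 0.55, the latter being 0.14 and not passing on column totals, and rose with CpG by 1.08 and 1.39. Arg1 (arginase 1) had a lower mean with ACs, with a ratio of AC to control on column totals of 0.833 in B6 and 0.338 in SjSS. For Amd1 the ratio on column totals was 1.45 in B6 and 1.00 in SjSS. Its ratio of CpG to control was 2.24 and 2.73, so that its mean was higher with CpG, as was that of Azin1.

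Plk2 encodes polo-like kinase 2, a stress-inducible kinase and target of p53 (chr13:110395044-110400844, plus strand). It had 53.1, 59.5 and 65.4 CPM in B6 controls, 128, 103 and 106 CPM with ACs and 47.1, 66.2 and 76.0 CPM with CpG. In SjSS it had 76.3, 87.8 and 76.8 CPM, 179.8, 202 and 224 CPM, and 83.4, 100.3 and 80.1 CPM. Its B6 ratio with ACs was the lowest of the 16, and without B6 control 1 or AC sample 1 that ratio was under the limit and Plk2 was not chosen. It passed with ACs (1.15 ± 0.13, adjusted p = 9.81e-07) and for the interaction (0.75 ± 0.19, adjusted p = 0.0042). Of 13 other p53 targets, 4 rose and 3 fell with ACs in B6 (20% and 18.3% of all genes), and 6 rose and 3 fell in SjSS (28.6% and 29.4%), where on column totals 3 rose and 7 fell. Cdkn1a, the inhibitor of cyclin-dependent kinases known as p21, rose by 0.61 ± 0.11 in B6 and 2.16 ± 0.12 in SjSS. Sesn1, which encodes sestrin 1, changed by -0.91 ± 0.10 and -3.15 ± 0.11, the largest change of the list. Trp53inp1 changed by -0.57 and -1.14 and Zmat3 by -0.36 and -1.09, and all 3 fell on column totals too. With CpG, 3 rose and 7 fell in B6 (28.1% and 29.8% of all genes) and 3 rose and 6 fell in SjSS (27.8% and 26.4%).

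Armcx6 belongs to a family of armadillo repeat genes clustered on the X chromosome, several of which act at mitochondria (chrX:134748461-134751417, minus strand). Its B6 controls had 1.52, 1.51 and 1.56 CPM, its AC samples 3.49, 4.83 and 4.68 CPM and its CpG samples 0.858, 1.1 and 0.972 CPM. SjSS had 1.72, 2.35 and 2.43 CPM, 25.7, 24.6 and 26.7 CPM, and 1.48, 1.65 and 1.99 CPM. The groups with ACs were far apart, and in each treatment every SjSS sample lay above every B6 sample. The difference with ACs was 2.87 ± 0.13 (adjusted p = 2.15e-12) and the interaction 2.42 ± 0.21 (adjusted p = 2.75e-08), after Fam26f the largest.

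The mitochondrial ribosomal RNAs mt-Rnr2 (chrM:1094-2675, plus strand), of the large subunit, and mt-Rnr1 (chrM:70-1024, plus strand), of the small subunit, are structural RNAs of the mitochondrial ribosome. In B6 mt-Rnr2 had 529, 537 and 421 CPM in the controls, 1006, 985 and 1499.9 CPM with ACs and 649.9, 432 and 435 CPM with CpG. In SjSS it had 470.5, 403 and 265 CPM, 2818, 3215 and 2986 CPM, and 532, 463 and 388 CPM. For mt-Rnr1 the B6 samples had 192, 188 and 146 CPM, 318, 327 and 448 CPM, and 159, 103 and 111 CPM, and the SjSS samples 152, 135 and 93.0 CPM, 555, 652 and 536 CPM, and 146, 134 and 110.4 CPM. B6 AC sample 3 was high for both RNAs, and all 3 SjSS AC samples were above it. The differences with ACs were 1.67 ± 0.21 (adjusted p = 2.09e-06) and 0.97 ± 0.19 (adjusted p = 0.00027), and the interactions 2.09 ± 0.29 (adjusted p = 1.34e-05) and 1.48 ± 0.27 (adjusted p = 0.00021). On TMM-scaled totals the CpG ratio of mt-Rnr2 in SjSS was 1.32, over the limit, and it would not have been chosen.

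The 13 protein-coding genes of the same genome had smaller ratios, whose direction in SjSS turned with the scaling. On column totals the ratio of AC to control was 0.541 to 1.40 in B6 (median 0.913) and 0.728 to 1.35 in SjSS (median 0.871). On the TMM scale 12 of 13 were above 0 with ACs in SjSS (median 0.21 on the log2 scale), and 5 passed higher (28.6% of all genes), namely mt-Nd3 (0.84), mt-Nd2 (0.60), mt-Nd1 (0.52), mt-Co3 and mt-Atp6 (both 0.42), while in B6 none passed higher and mt-Nd5 and mt-Nd6 passed lower. The interaction passed higher for mt-Co3 (0.48) and mt-Nd5 (0.78) and for none on column totals. Untreated, 12 of the 13 passed lower in SjSS than in B6 on the TMM scale and 11 on column totals (10.6% and 8.21% of all genes). The TMM median was -0.72. Untreated mt-Rnr1 (-0.51) and mt-Rnr2 (-0.42) did not pass on either scale. With CpG in SjSS, 9 of the 13 rose on the TMM scale and 3 on column totals (27.8% and 20.6% of all genes). In B6 0 rose with CpG on either scale, and 4 fell on column totals. On column totals none of the 13 reached 1.8, and none had every AC sample above every control in either strain. The ratios of mt-Rnr1 and mt-Rnr2 with ACs, 2.08 and 2.35 in B6 and 4.59 and 7.92 in SjSS, were above those of each of the messenger RNAs transcribed from the same circle.

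**Figure D5:**
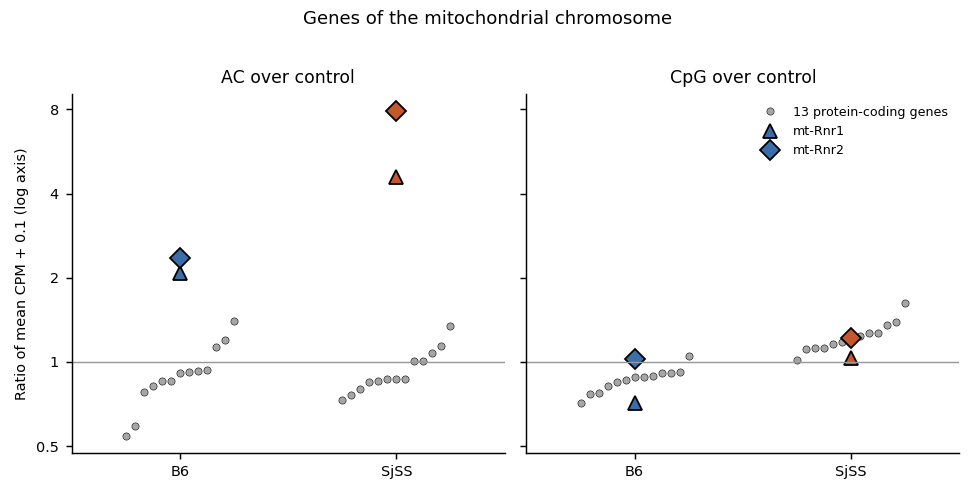
Ratio of mean CPM plus 0.1 (log axis) of AC to control and of CpG to control, on column totals, for the mitochondrial ribosomal RNAs and the 13 mitochondrial protein-coding genes in B6 and SjSS. With AC the ribosomal RNAs lie at 2.08 to 7.92, and the 13 protein-coding genes lie between 0.541 and 1.40.

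Phldb1 encodes a pleckstrin homology-like domain protein related to microtubule anchoring at the cell cortex (chr9:44686304-44735198, minus strand), and had the largest AC ratio of the B6 strain, 3.31. B6 controls had 19.0, 14.1 and 23.1 CPM, AC samples 54.9, 69.1 and 62.6 CPM and CpG samples 13.6, 11.7 and 14.4 CPM. SjSS had 22.3, 27.2 and 19.3 CPM, 101.3, 104 and 82.9 CPM, and 17.2, 23.9 and 15.0 CPM. The strains overlapped without treatment and were apart with CpG, where the difference of 0.40 did not pass, and with ACs (0.93 ± 0.16, adjusted p = 0.0001). The interaction of 0.68 ± 0.24 passed narrowly (adjusted p = 0.029). It was lost in 6 of the 12 fits that left out 1 sample: B6 control 3, B6 AC 1, SjSS control 1 or 3, and SjSS AC 1 or 2.

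Arhgap28 encodes a GTPase-activating protein (chr17:67842713-68004120, minus strand). It had 1.79, 3.28 and 2.70 CPM in B6 controls, 6.17, 4.97 and 5.36 CPM with ACs and 1.2, 0.979 and 1.31 CPM with CpG. In SjSS it had 2.23, 2.18 and 1.77 CPM, 15.0, 12.0 and 13.2 CPM, and 2.55, 1.57 and 2.26 CPM. CpG samples lay below the controls in B6 and overlapped them in SjSS. With ACs SjSS exceeded B6 by 1.59 ± 0.18 (adjusted p = 6.84e-07), and the interaction was 1.95 ± 0.28 (adjusted p = 1.64e-05).

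Sh3bgrl2 encodes a small thioredoxin-like protein (chr9:83548327-83638801, plus strand). The B6 controls had 82.2, 90.2 and 81.6 CPM, the AC samples 171, 163 and 183 CPM and the CpG samples 73.9, 63.1 and 65.9 CPM. In SjSS the values were 109, 107 and 75.4 CPM, 276, 295 and 269 CPM, and 82.3, 83.6 and 65.9 CPM. Only the AC groups of the strains were apart, by 1.00 ± 0.12 (adjusted p = 9.64e-07), with an interaction of 0.84 ± 0.17 (adjusted p = 0.00054).

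Cdh5 encodes VE-cadherin, the adhesion protein of endothelial junctions (chr8:104101625-104144511, plus strand). It was low throughout, with 2.80, 2.63 and 2.39 CPM in B6 controls, 4.95, 6.30 and 6.86 CPM with ACs and 1.54, 1.3 and 1.52 CPM with CpG. SjSS had 3.71, 3.71 and 2.92 CPM, 7.05, 6.70 and 6.71 CPM, and 2.12, 1.77 and 1.66 CPM. The AC groups of the strains overlapped, and the difference of 0.47 ± 0.14 (adjusted p = 0.0075) was the smallest of the 16 with ACs. It was lost on column totals and without B6 AC sample 1. The interaction of 0.12 had an interval of -0.31 to 0.54 and was -0.22 on column totals. Of 7 endothelial markers other than Cdh5, 4 were in the table, and their sum was 27.7 to 33.0 CPM in B6 controls and 20.1 to 25.2 CPM with ACs, and 42.1 to 43.8 and 33.7 to 40.2 CPM in SjSS. On TMM-scaled totals the ratio of AC to control of this sum was 0.78 in B6 and 1.12 in SjSS, so that in SjSS its direction turned with the scaling. The part of these markers in the values of Cdh5 was not tested.

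The long non-coding RNA 9330175E14Rik (chr8:94422898-94435103) is annotated on the minus strand and overlaps Nlrc5, a regulator of MHC class I genes, on the other. B6 controls had 1.38, 2.41 and 2.45 CPM, AC samples 4.29, 4.08 and 3.88 CPM and CpG samples 1.12, 1.78 and 2.54 CPM. SjSS had 3.28, 3.06 and 3.78 CPM, 7.81, 5.54 and 8.04 CPM, and 2.33, 2.69 and 3.65 CPM. It was raised by ACs at a low level in both strains and passed between them with ACs (1.1 ± 0.23, adjusted p = 0.00063), with an interaction of 0.44 ± 0.34 that did not pass. Whether counting used strand was not given in the sources used here, so reads of the 2 genes may not be told apart. The AC response of Nlrc5, looked up after its values were seen, was -0.07 in B6 and 1.95 in SjSS, and its CpG response 1.01 and 0.84.

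Promoter windows (250 bases before to 50 after the start, RefSeq, GRCm38.p6) were found for 10 of the 16 genes and compared with 32851 windows of the same length. The genes without one were Gm9115, Gm9260, mt-Rnr1, mt-Rnr2, Abcg1 and Cdh5. Both strands were searched for 11 motifs, and no motif was held by more than 4 of the 10 genes. The cyclic AMP response element TGACGTCA was in 1 gene, Plk2 (1.79% of all windows), and its core TGACG, which every such element also holds, was in 4 (20.8%). The interferon-stimulated response element was in 2, Fam26f and Plk2 (3.44%), the E-box CACGTG in 2 (7.15%), the antioxidant element TGACNNNGC in 3 (12.4%), the metal response core TGCACNC or TGCGCNC in 3 (25.7%) and the AP-1 site TGACTCA or TGAGTCA in 1, Lif (5.2%). No window of the 10 genes held the palindromic glucocorticoid response element (0.475% of all), the LXR direct repeat with a spacer of 4 (0.0152%), the heat shock element (0.603%) or the element TGATGNAA of the amino acid response (3.97%). A match is a description of letters and not a bound site.

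The stretches from 100 to 21 bases before the start of 3 genes hold such matches, in capitals (chr10:34127993-34128072 minus, chrX:134751440-134751519 minus and chr13:110394944-110395023 plus strand). Fam26f and Armcx6 are shown for the largest strain differences with ACs, and Plk2 as the 1 gene with the cyclic AMP element TGACGTCA. In Fam26f the capitals mark the interferon-stimulated element, in Armcx6 TGACG, which there lies within a match to the antioxidant element, and the E-box, and in Plk2 the cyclic AMP element.
Fam26f: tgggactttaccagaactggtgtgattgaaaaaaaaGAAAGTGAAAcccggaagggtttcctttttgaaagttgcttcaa
Armcx6: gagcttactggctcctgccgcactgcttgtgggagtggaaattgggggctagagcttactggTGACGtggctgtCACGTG
Plk2: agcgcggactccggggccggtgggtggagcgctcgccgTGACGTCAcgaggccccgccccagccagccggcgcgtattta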

How the data were processed

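The authors used STAR for alignment to mm10 and Partek's E/M tool for quantification, and deposited 1 table of estimated counts without normalization (18 samples; 41.1% of values not whole). CPM used column totals. For tests, estimated counts were rounded, filtered with filterByExpr (15789 of 20615 genes left), scaled by TMM and fitted by edgeR 4.0.16's quasi-likelihood method in R 4.3.3, with a mean for each of 6 groups over all 18 samples and Benjamini-Hochberg adjustment within each comparison. Gene ends are those of the table less 1 base, since they lay 1 base past the GENCODE M21 end for 16729 of 17587 genes with the same start. Groups came from the labels. By rule any of the 16 genes could be named; others named were Mt1, Mt2, genes next to the limits, list members and Nlrc5, chosen after its values were seen, and 1 gene next to a limit is not reported here. The genes and lists were chosen with earlier results of these data known. The endothelial list, the split of the T-lineage list, the column total alternative and the block within each strain were chosen after seeing the data. Other alternatives were DESeq2 1.42.0, its size factors, other filters, fits of the compared groups only, a replicate block, each sample left out and other limits of the rule. The fit was tested on simulated data. Intervals cover the spread between samples, and floors cover counting error only. No 2 replicates were alike within sampling noise.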

Additional observations from a re-analysis of the deposited data

Results flagged for a closer look

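The AC response differed between the strains, by the test of the interaction of strain with AC (edgeR, TMM scaling), for 12 of the 16 genes, and in each it was larger in SjSS (19.6% of all genes passed higher and 18.3% lower). As log2 of the response in SjSS over that in B6, the interaction was 3.64 for Fam26f, 2.42 for Armcx6, 2.09 for mt-Rnr2, 1.95 for Arhgap28, 1.65 for Peli1 and 1.48 for mt-Rnr1. It was 0.99 for Gm9260, 0.89 for Odc1, 0.84 for Sh3bgrl2, 0.75 for Plk2, 0.72 for Gm9115 and 0.68 for Phldb1. On column totals 8 of the 12 passed, and Phldb1, Gm9115, Gm9260 and Plk2 did not. Phldb1 was also lost in 6 of 12 fits without 1 sample. Gm9115 and Gm9260 share sequence with Odc1, and whether they moved on their own was not tested.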

How the results depend on the processing

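Over the strain tests of single genes and their alternatives, 552 values kept their direction and side of the threshold, 17 came to pass, 15 no longer passed and 8 changed sign. Called counts moved most where the fold threshold was dropped, to 4 without treatment, 16 with AC, 5 with CpG and 12 for the interaction. Without treatment, the genes passing higher were 2 with no filter on low counts and 2 to 4 with 1 sample left out (2 without B6 control 2 or SjSS control 2), and the genes passing lower 0 to 1 (1 without B6 control 1 or 3 or SjSS control 1). With CpG, 3 passed in a fit of the compared groups only. Column totals and samples left out turned the sign of differences that passed neither there nor in the reported fit. With CpG Peli1 became 0.069 on column totals and -0.084 to 0.036 with a sample left out, mt-Rnr1 became 0.061 and -0.15 to 0.19, and mt-Rnr2 -0.36 to 0.00058. The interaction became -0.15 for Abcg1 and -0.22 for Cdh5 on column totals, and -0.013 to 0.22 for Cdh5 with a sample left out. The Lif interaction passed without SjSS control 2 (1.03). With AC, 4 genes were called on column totals and 5 to 6 with a sample left out (6 without B6 AC 3, Gm9260 joining), and for the interaction 5 and 5 to 6. The cause was not tested.

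No source ties a replicate number to a mouse. Within a strain, the correlation of deviations of same-numbered samples was over 0.1 in 2 of 6 pairs of control and AC, 5 of 6 of control and CpG and 2 of 6 of AC and CpG (0.0198 to 0.264 over the 18), and in 0 of 27 pairs between strains. Of 12 samples each, 8, 12 and 12 correlated best with their own number, a hint from the data that numbers may mark mice. With the replicate block 6 genes passed higher and 1 lower without treatment (mt-Rnr1, -0.52), 16 with AC, 6 with CpG and 12 for the interaction, and called counts did not change. With a block within each strain, chosen after seeing the data, the interaction passed for 12 and was called for 6.

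Summed markers with AC over control, on TMM-scaled totals and then on column totals, were 1.2 and 0.898 for macrophage markers, 1.05 and 0.785 for stromal and epithelial markers and 1.12 and 0.843 for endothelial markers in SjSS. Dendritic cell markers gave 1.47 and 1.4 in B6 and 3.92 and 2.94 in SjSS (exact permutation p = 0.1 each, the smallest that 3 against 3 allow). With a sample left out the stromal sum was at least 0.961 in SjSS, and in B6 0.740 to 1.2 against 0.942.

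The rule gave 22 genes on TMM-scaled totals (15 shared, mt-Rnr2 lost), 13 with an AC limit of 2, 13 with a CpG limit of 1.1 and 15 with a pseudocount of 1 (13 shared). With 1 sample left out it gave 14 to 18, and 12 of the 16 were kept throughout, the others being Plk2 and 9330175E14Rik (lost without B6 control 1), Plk2 (B6 AC 1), Lif (B6 control 2) and mt-Rnr2 (SjSS control 1 or CpG 3).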
